A study of Mus musculus with 23 samples.

Results

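The genes described here encode the enzymes and transporters that carry glucose to pyruvate and decide what becomes of that pyruvate, measured by RNA sequencing in mouse embryonic stem cells. They were taken by symbol from a list of genes for glycolysis, lactate and pyruvate metabolism. All 33 listed genes are among the 53607 gene rows of the count matrix, and all 33 were among the 20372 genes with enough counts to be tested.

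The 23 libraries fall into 8 groups from 3 factors, the medium, the presence of RAS and the ERF genotype. By the labels, every group carries H-Ras-/-;N-Ras-/- and Ubiq-CreERT2, a Cre recombinase that tamoxifen activates, in the Raslox/lox cell background. The controls are thus labelled as lacking both of those RAS genes too. Cells labelled RAS deleted had received 4-hydroxytamoxifen (OHT) for 6 days, and since every such library had the drug and no other did, OHT and the loss of RAS cannot be told apart. ERF, an ETS-family repressor of transcription that ERK signalling inactivates, is labelled wild type or knockout. The medium 2iL holds cells in the naive state with the MEK inhibitor PD0325901, the GSK3 inhibitor CHIR99021 and the cytokine LIF. In FA, cells stood for 48 hours on fibronectin with FGF2 and Activin A, which takes them toward an epiblast-like state. Below, the reference line is ERF wild type with RAS present and the RAS-deleted line is ERF wild type after OHT. Each group has 3 libraries, except the reference line in FA, which has 2. The labels do not say whether replicates were separate cultures, so p-values measure the spread between these libraries, which may be technical.

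Between 16.2 and 29.9 M counts were assigned to genes in each library. Erf RNA was higher under the label ERF knockout than with wild type ERF in 2iL, by 0.58 ± 0.13 (SE) on the log2 scale with RAS present and 0.79 ± 0.13 with RAS deleted. In FA the differences, -0.14 ± 0.15 and -0.20 ± 0.13, did not pass the test. Hras and Nras RNA was still counted in every library, at a minimum of 188 and 95 counts, and gene-level counts do not show whether reads come from the altered part of a gene. Under the ERF knockout label in 2iL, replicate 2 stood apart from replicates 1 and 3 of its group in Nras, with 143 counts against 585 and 908 when RAS was present and 95 against 516 and 919 when it was deleted. It was also the lowest of its group in FA, at 263 and 471 counts. The 4 pluripotency markers that the cells should share summed to between 781 and 1275 CPM (counts scaled to a common library total, on a library size scaled by edgeR's TMM method) in every library. The 7 naive markers summed to 2049 to 2549 CPM in 2iL and to 90.6 to 149 CPM in FA in 3 of the lines, but to 801, 912 and 1248 CPM as lowest, median and highest in the RAS-deleted line. The 5 epiblast-like markers stood at 271 to 501 CPM in that line in FA and at 559 to 854 CPM in the other FA libraries. The 4 primitive endoderm markers summed to 39.5 to 75.9 CPM in FA with RAS present and to 6.94 to 19.2 CPM in FA with RAS deleted. The 2 neural markers reached 97.3 to 101 CPM in FA under the ERF knockout label with RAS deleted, against 11.8 to 48.3 CPM in the other FA libraries. The 4 trophoblast markers summed to 16.1 to 42.5 CPM in 2iL and 22.05 to 57.1 CPM in FA under the ERF knockout label, against 3.86 to 10.6 CPM in 2iL and 5.65 to 25.3 CPM in FA with wild type ERF. The 3 mesoderm markers lay between 5.30 and 18.99 CPM, with Mixl1 and T under 1 CPM in every library. Among the 5 markers of fibroblast feeder cells, whose sum stayed between 2.23 and 7.43 CPM, Col3a1 and Postn were under 1 CPM in every library. The part of these marker differences in the results on metabolic genes was not tested. All 4 replicate 1 libraries with wild type ERF had higher expression of genes on chromosome 8, where no member lies. The 4 replicate 1 libraries labelled ERF knockout had higher expression over 848 genes of chromosome 11, which carries Aldoc, Eno3, Slc16a3 and Pdk2. Their median log2 deviation from the group mean there was 0.0409 to 0.1093, against -0.0654 to -0.0156 in replicates 2 and 3. Leaving out those 4 libraries, or the 4 replicate 2 libraries under that label, were alternatives added after the data were seen. Their values stand beside each count of members that they moved by more than 1.5 times and each change of at least 2-fold that then missed the threshold, and both leave fewer libraries in the fit.

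Glycolysis splits glucose into pyruvate in the cytosol. Pyruvate is then either reduced to lactate and exported, or carried into the mitochondrion by the MPC1-MPC2 carrier and oxidised by the pyruvate dehydrogenase complex, which PDK kinases switch off by phosphorylation. Many steps have several isoenzymes encoded by different genes, and the hypoxia-inducible factor HIF and MYC are known activators of several of these genes. In the embryo and in culture, the passage from naive to primed pluripotency is known for a shift toward glycolysis.

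Promoter windows are shown for Slc16a3, Pdk1, Slc2a1 and Pfkl, the 4 members with the largest log2 change in any of the 12 comparisons that follow, and for Ldha, Ldhb and Mpc1 at the lactate and mitochondrial steps, so that the letters near their start sites can be read beside their values. They span 250 bases before to 50 bases after an annotated start, come from RefSeq on GRCm38.p6 (the build the submitters name as mm10) and are written 5′ to 3′ on the gene's own strand. The last 3 were chosen with their values known and were not next in size. Capitals mark a match on either strand to the HRE core ACGTG, which is the short core of the sites HIF binds, to the E-box CACGTG, or to the ETS core CCGGAAG. Each E-box holds the HRE core on both strands, so these matches overlap.
Pdk1, chr2:71872974-71873273, plus strand: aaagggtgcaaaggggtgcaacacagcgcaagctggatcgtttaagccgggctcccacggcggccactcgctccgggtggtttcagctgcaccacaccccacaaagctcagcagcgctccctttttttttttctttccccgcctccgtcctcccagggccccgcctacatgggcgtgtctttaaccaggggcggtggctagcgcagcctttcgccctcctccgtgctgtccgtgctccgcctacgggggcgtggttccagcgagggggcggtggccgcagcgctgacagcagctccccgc
Slc16a3, chr11:120948817-120949116, plus strand: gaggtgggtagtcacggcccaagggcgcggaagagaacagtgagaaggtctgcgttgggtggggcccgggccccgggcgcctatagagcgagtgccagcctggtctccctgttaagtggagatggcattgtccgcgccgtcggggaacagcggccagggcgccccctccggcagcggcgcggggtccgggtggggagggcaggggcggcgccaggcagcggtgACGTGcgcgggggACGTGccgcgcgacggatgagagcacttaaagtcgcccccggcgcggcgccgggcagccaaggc
Slc2a1, chr4:119108495-119108794, plus strand: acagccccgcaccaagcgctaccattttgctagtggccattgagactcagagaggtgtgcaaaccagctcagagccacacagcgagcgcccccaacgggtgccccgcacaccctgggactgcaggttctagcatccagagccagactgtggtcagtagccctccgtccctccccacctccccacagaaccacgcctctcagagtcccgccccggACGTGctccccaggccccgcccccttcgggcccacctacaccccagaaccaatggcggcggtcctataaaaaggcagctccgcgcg
Pfkl, chr10:78009758-78010057, minus strand: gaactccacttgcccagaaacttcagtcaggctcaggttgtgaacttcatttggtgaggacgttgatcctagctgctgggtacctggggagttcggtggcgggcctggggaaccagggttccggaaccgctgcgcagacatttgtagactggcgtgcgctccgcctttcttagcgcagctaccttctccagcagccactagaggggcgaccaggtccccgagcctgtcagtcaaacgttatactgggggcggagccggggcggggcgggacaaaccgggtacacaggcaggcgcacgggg
Ldha, chr7:46845554-46845853, plus strand: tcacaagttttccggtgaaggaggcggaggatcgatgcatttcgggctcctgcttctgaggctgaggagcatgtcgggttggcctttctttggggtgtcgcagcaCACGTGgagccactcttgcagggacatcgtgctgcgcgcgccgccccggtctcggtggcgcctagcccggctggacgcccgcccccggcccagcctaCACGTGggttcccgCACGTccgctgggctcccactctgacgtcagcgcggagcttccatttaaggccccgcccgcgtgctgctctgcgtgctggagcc
Ldhb, chr6:142507908-142508207, minus strand: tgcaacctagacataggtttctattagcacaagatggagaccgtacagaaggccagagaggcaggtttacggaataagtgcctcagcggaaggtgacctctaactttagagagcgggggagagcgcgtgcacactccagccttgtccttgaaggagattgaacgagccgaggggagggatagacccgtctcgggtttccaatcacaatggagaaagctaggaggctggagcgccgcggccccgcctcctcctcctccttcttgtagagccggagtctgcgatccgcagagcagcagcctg
Mpc1, chr17:8283537-8283836, plus strand: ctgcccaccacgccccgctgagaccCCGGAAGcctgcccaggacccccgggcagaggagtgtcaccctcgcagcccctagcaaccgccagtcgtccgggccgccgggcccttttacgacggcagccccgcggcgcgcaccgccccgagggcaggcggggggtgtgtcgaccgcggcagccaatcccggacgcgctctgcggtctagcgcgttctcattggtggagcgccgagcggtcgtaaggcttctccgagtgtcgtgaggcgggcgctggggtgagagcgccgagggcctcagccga
The Ldha window holds 5 HRE core matches, of which 4 lie inside its 2 E-boxes, the Slc16a3 window holds 2 and the Slc2a1 window holds 1. The Pdk1, Pfkl and Ldhb windows hold none of the 3 motifs searched, though the unsearched form GCGTG can be read in each of them. The Mpc1 window holds 1 ETS core. Pdk1, Ldha and Mpc1 have a second annotated window each, and none of those holds a match. Across the 32 members with a window, 19 (59.4%) had the HRE core ACGTG in at least 1 window, against 21.8% of the 27025 genes in the RefSeq table. Counted by window, since members can have several, it was 46.9% of 49 against 19.6% of 32851. The E-box was found for 6 members (18.8%, against 8.09% of genes) and the ETS core for 2, Aldoc and Mpc1 (6.25%, against 9.93% of genes). These are matches of letters and no measurement of binding. Slc2a3 has no window in the table.

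Levels between genes were compared as TPM, the deposited value that corrects for transcript length. In the reference line in 2iL the highest members were Gapdh, glyceraldehyde-3-phosphate dehydrogenase, at 664 ± 69.9 TPM (SD, n = 3), Aldoa, the main aldolase, at 459.7 ± 74.7, and Pkm, pyruvate kinase, at 343 ± 75.7. The lactate exporter Slc16a3 was the lowest at 1.06 ± 0.658 TPM. In FA, Gapdh at 1016 ± 20.05 TPM (SD, n = 2) and Pkm at 989.6 ± 1.17 were the highest, and Slc16a3 had moved from rank 33 to rank 15 at 52.6 ± 14.7 TPM. Pdk1, the pyruvate dehydrogenase kinase that is a textbook HIF target, moved from rank 25 at 8.86 ± 1.60 TPM to rank 12 at 76.1 ± 0.919 TPM. Summed over the 33 members, the FA to 2iL ratio of mean CPM was 1.69 in the reference line, 1.52 in the RAS-deleted line, 1.28 under the ERF knockout label and 1.55 under that label with RAS deleted. With TPM the 4 ratios were, in the same order, 1.82, 1.68, 1.36 and 2.07, so the highest was that of the reference line by CPM and that of the knockout label with RAS deleted by TPM. These ranks and sums take Eno1 without Eno1b, a near-identical copy that shares its reads. In the reference line Eno1 stood at 198 TPM in 2iL and 601 TPM in FA. It held 45.3 to 47.0% and 46.1 to 46.6% of the counts of the pair, so the rank of enolase is uncertain.

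The first comparison asks how the pathway responds when cells leave 2iL for FA. In the reference line, RNA of the glucose transporter gene Slc2a1, most glycolytic enzymes, the lactate dehydrogenase gene Ldha and the lactate exporter gene Slc16a3 rose. RNA of both hexokinases, both subunits of the mitochondrial pyruvate carrier and the isoenzymes Pfkp, Eno2 and Ldhb fell. Of the 33 members, 29 passed the test (edgeR's quasi-likelihood test, Benjamini-Hochberg adjusted p under 0.05 over all genes tested), 17 higher and 12 lower. Among all genes tested 49.5% passed, 25.4% higher and 24.1% lower. With a change of at least 2-fold as well, 17 members were called, against 24% of all genes. The median log2 fold change of the members was 0.29, beside 0.03 over all genes tested. Markers moved with the medium too. From 2iL to FA in the reference line the naive markers summed to 2179 to 2515 and then 102 to 134 CPM, the epiblast-like markers to 100 to 114 and 844 to 854, and the general pluripotency markers to 1022 to 1218 and 894 to 1004. The neural markers summed to 8.59 to 13.4 and 47.5 to 47.9 CPM, the primitive endoderm markers to 11.2 to 19.4 and 39.5 to 75.9, the trophoblast markers to 3.86 to 10.6 and 21.5 to 25.3, and the mesoderm markers to 5.30 to 7.90 and 15.3 to 18.99. Their part in the results on the medium was not tested. In bulk samples such as these, fewer cells of a type and less RNA per cell cannot be told apart.

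Slc2a1 encodes GLUT1, a widely expressed glucose transporter. Its CPM was 37.2, 58.8 and 60.1 in the 3 reference libraries in 2iL and 257 and 197 in the 2 in FA. The 2 ranges are far apart, and the rise was 4.38-fold (log2 fold change of 2.13 ± 0.27, adjusted p = 5.05e-06). Slc2a3, which encodes the high-affinity transporter GLUT3 and stood far above Slc2a1 in 2iL, moved little, from 876, 909 and 931 CPM to 762 and 785 CPM, a log2 fold change of -0.23 ± 0.09 that passed the test but did not do so when any 1 of 4 single libraries was left out.

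In the upper part of glycolysis, 5 of 9 members rose, 3 fell and 1 did not pass. Hk1 and Hk2 encode the hexokinases that trap glucose as glucose-6-phosphate. Hk1 went from 146, 129 and 123 CPM to 31.1 and 38.3 CPM, a log2 fold change of -1.94 ± 0.22, adjusted p = 6.11e-07. Hk2 went from 253, 303 and 301 CPM to 117 and 137 CPM, a log2 fold change of -1.17 ± 0.13, adjusted p = 1.16e-07. For both genes, every FA library lay below every 2iL library. RNA of phosphofructokinase, the main point of control, shifted between isoenzymes. Pfkl, the liver form, rose from 33.8, 38.1 and 42.1 CPM to 214 and 246 CPM, or 6.06-fold (log2 fold change of 2.60 ± 0.09, adjusted p = 5.97e-16). Pfkp, the platelet form, fell from 341, 294 and 299 CPM to 98.2 and 148 CPM (log2 fold change of -1.34 ± 0.18, adjusted p = 4.74e-06). The muscle form Pfkm did not pass, with a log2 fold change of 0.14 ± 0.10. By length-corrected TPM, Pfkl made up 10.2% ± 1.85 (SD, n = 3) of the 3 forms in 2iL and 58.8% ± 3.08 (SD, n = 2) in FA. Pfkp made up 77.7% ± 1.68 and still 27.7% ± 3.57 in the same groups. Downstream of it, Aldoc, the brain form of aldolase, rose from 6.23, 5.36 and 5.48 CPM to 10.7 and 17.3 CPM (log2 fold change of 1.29 ± 0.21, adjusted p = 2.11e-05). Tpi1, triose phosphate isomerase, rose from 71.1, 77.7 and 83.2 CPM to 221 and 235 CPM (log2 fold change of 1.56 ± 0.12, adjusted p = 1.49e-10). None of these ranges overlapped between the media, as was so for 98.5% of all genes called in this comparison. Gpi1 and Aldoa also rose, by 0.53 ± 0.09 and 0.81 ± 0.12 on the log2 scale.

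In the lower part of glycolysis, 6 of 7 members rose and 1 fell. Pgk1, phosphoglycerate kinase, which makes ATP, went from 101, 120.0 and 123 CPM to 363 and 469 CPM, a log2 fold change of 1.86 ± 0.13, adjusted p = 9.77e-11. Pkm, whose enzyme makes pyruvate and the last ATP of the pathway, went from 655, 842 and 909 CPM to 2047 and 2465 CPM, a log2 fold change of 1.49 ± 0.11, adjusted p = 1.89e-10. Every FA library exceeded every 2iL library for both. Eno1, the general enolase, went from 236, 314 and 337 CPM to 809 and 981 CPM (log2 fold change of 1.60 ± 0.13, adjusted p = 6.54e-10). Its counts are uncertain, because a near-identical copy, Eno1b, holds 117% as many counts and Salmon divides shared reads between them. Eno1 took 44.9 to 47.3% of the pair in every library, and with both counted together, an alternative added after the data were seen, the log2 fold change was 1.58. The muscle enolase Eno3, at far lower counts, rose from 4.24, 3.69 and 2.88 CPM to 9.17 and 10.3 CPM (log2 fold change of 1.42 ± 0.20, adjusted p = 2.79e-06). The neuronal enolase Eno2 fell from 10.9, 4.52 and 6.74 CPM to 4.46 and 4.26 CPM, with a log2 fold change of -0.78 ± 0.29 (edgeR adjusted p = 0.0284), and did not pass when any 1 of 3 single libraries was left out. Gapdh and Pgam1 rose by less than 2-fold. Rows named as copies of Gapdh, Pgk1, Aldoa and Ldha each held at most 1.41% of the counts of their parent gene, and Pgam1-ps2 held 7.14% of those of Pgam1. Copies under other names were not searched for.

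At the lactate step, Ldha and Ldhb moved in opposite directions. Ldha encodes the lactate dehydrogenase subunit that favours lactate, and Ldhb the one that favours pyruvate. Ldha went from 139, 129 and 132 CPM to 414 and 359 CPM, a log2 fold change of 1.54 ± 0.17, adjusted p = 5.1e-07. Ldhb went from 87.0, 109 and 105 CPM to 37.6 and 48.4 CPM, a log2 fold change of -1.23 ± 0.14, adjusted p = 1.11e-07. The share of Ldhb in the summed TPM of both fell from 48.3% ± 4.12 (SD, n = 3) to 12.4% ± 2.76 (SD, n = 2). Slc16a3, which encodes the lactate exporter MCT4, had the largest change among the members: 2.42, 1.55 and 1.02 CPM in 2iL became 95.6 and 74.5 CPM in FA, a log2 fold change of 5.62 ± 0.44, adjusted p = 1.86e-08, or 49.2-fold. Slc16a1, which encodes the related transporter MCT1, was already at 101, 89.9 and 86.2 CPM in 2iL and reached 126 and 108 CPM, a log2 fold change of 0.35 ± 0.09 that missed the threshold with 1 library left out.

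At the entry to the mitochondrion, 3 of 4 members fell. Mpc1 went from 26.2, 19.7 and 18.8 CPM to 6.08 and 6.01 CPM, a log2 fold change of -1.84 ± 0.20, adjusted p = 8.82e-08. Its partner in the carrier, Mpc2, went from 13.2, 14.04 and 11.8 CPM to 6.08 and 6.58 CPM, a log2 fold change of -1.04 ± 0.15, adjusted p = 4.28e-06. Both were lower in every FA library than in any 2iL library. Pdha1, a catalytic subunit of pyruvate dehydrogenase, fell by 0.54 on the log2 scale, and Pdhb did not pass. Of the kinases that inhibit that complex, Pdk1 rose from 19.5, 13.6 and 11.5 CPM to 149.8 and 148 CPM, 9.93-fold (log2 fold change of 3.31 ± 0.13, adjusted p = 2.31e-14). Pdk2 and Pdk3 did not pass. Pdk1 was 42.9% ± 5.52 (SD, n = 3) of the summed TPM of the 3 kinases in 2iL and 86.5% ± 1.82 (SD, n = 2) in FA. The 3 Pfkfb genes, whose enzymes set the level of fructose-2,6-bisphosphate, an activator of phosphofructokinase, all fell by less than 2-fold, and each of them missed the threshold with at least 1 library left out. G6pdx, the entry to the pentose phosphate pathway, rose by 0.29 ± 0.09 on the log2 scale and missed the threshold with any 1 of 3 libraries left out.

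**Figure D1:**
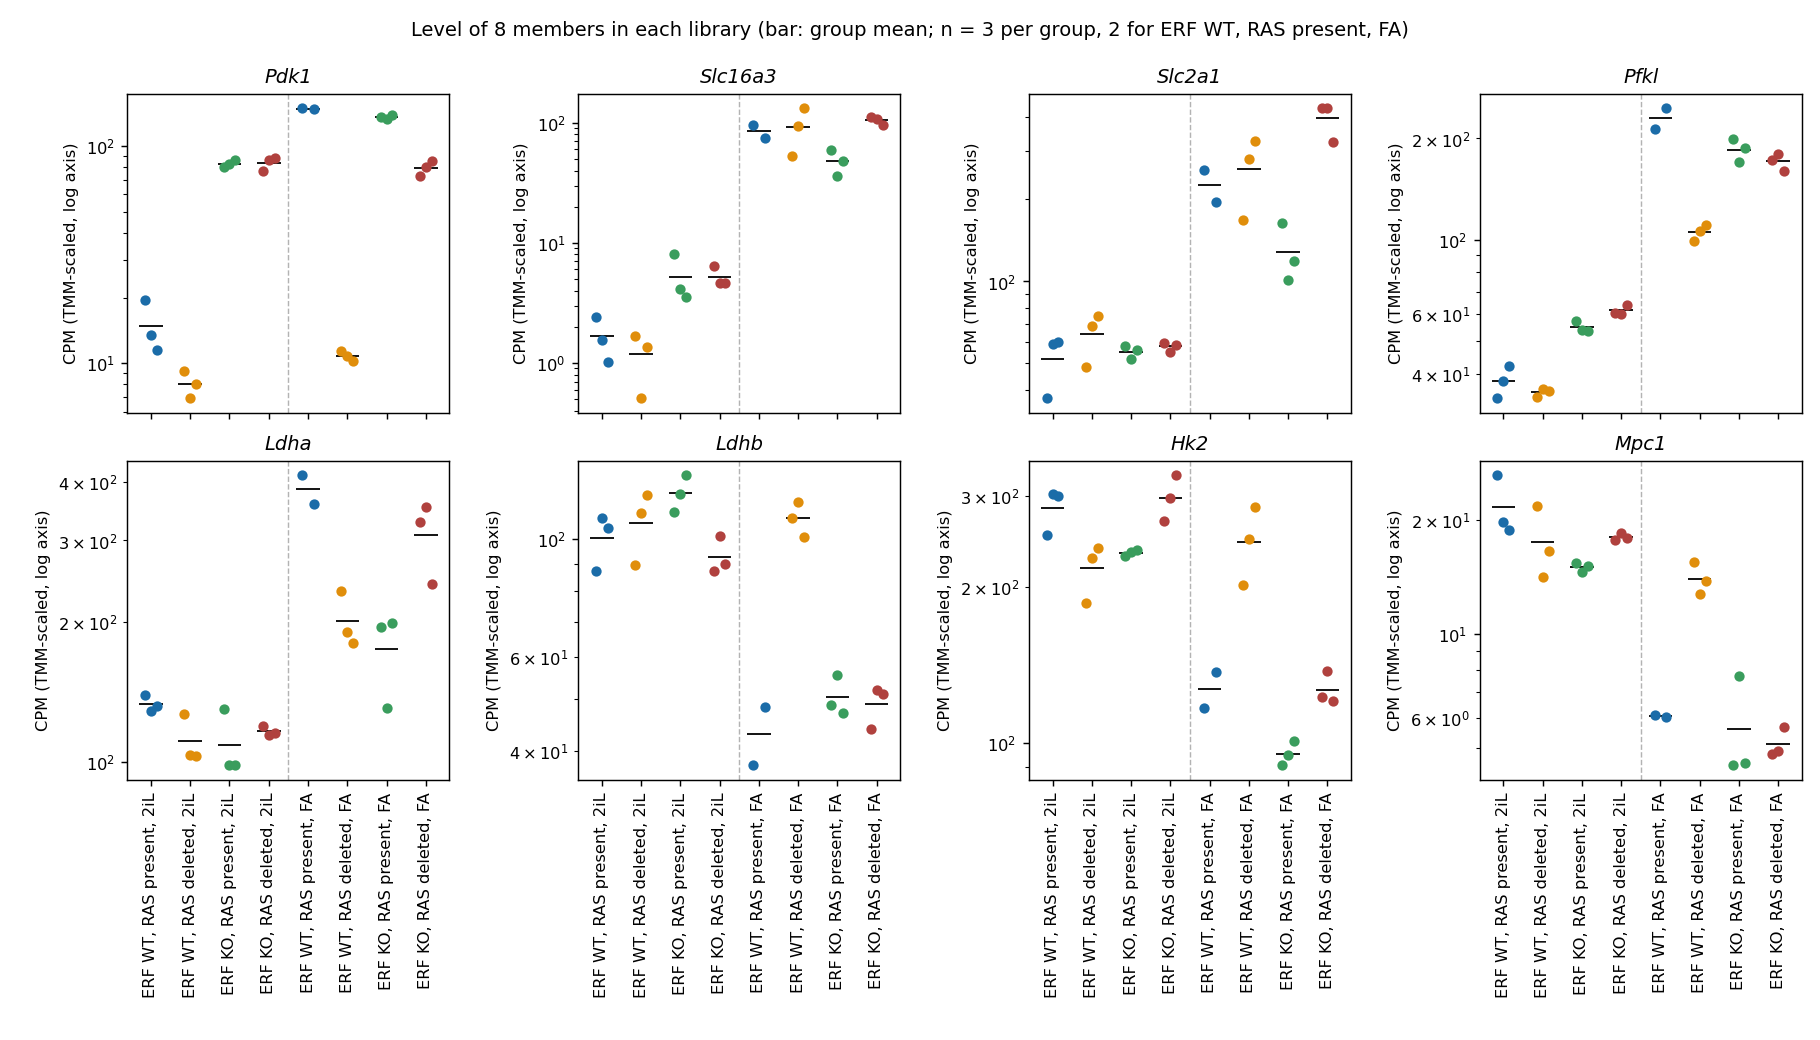
Each point is the CPM of 1 library on a log axis for 8 members, with 2iL groups left and FA groups right of the dashed line and a bar at the group mean. Pdk1 lies between 6.90 and 11.4 CPM in all 6 libraries of the RAS-deleted line and at 149.8 CPM or just below in the reference line in FA, while Slc16a3 and Slc2a1 are higher in FA than in 2iL in all 4 lines.

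The same change of medium was then compared in the other lines, which share no library with the reference line. In the RAS-deleted line 23 members passed (16 higher, 7 lower), against 43% of all genes (21.6% higher and 21.4% lower), and 5 were called, against 16.5%. Without its replicate 1 in FA, or without all replicate 1 libraries of wild type ERF (an alternative added after the data were seen), 9 were called. In the line labelled ERF knockout with RAS present, 25 passed (16 higher, 9 lower), against 46.9% (24.6% and 22.3%), and 11 were called, against 19.7%. With the same label and RAS deleted, 25 passed (14 higher, 11 lower), against 55.7% (28.3% and 27.4%), and 15 were called, against 24.9%. From 2iL to FA in these 3 lines, in the same order, the naive markers went from between 2296 and 2380 to between 801 and 1248 CPM, from between 2049 and 2167 to between 90.6 and 132 and from between 2249 and 2549 to between 114 and 149. The epiblast-like markers went from between 100 and 103 to between 271 and 501 CPM, from between 87.4 and 95.8 to between 559 and 605 and from between 96.6 and 101 to between 645 and 689, and the neural markers from between 4.52 and 6.09 to between 11.8 and 21.4, from between 16.1 and 19.9 to between 39.3 and 48.3 and from between 14.1 and 17.5 to between 97.3 and 101. The general pluripotency markers went from between 1063 and 1155 to between 1218 and 1275 CPM, from between 1045 and 1122 to between 797 and 855 and from between 1186 and 1259 to between 781 and 815. Feeder markers in the first of these lines went from between 4.36 and 5.54 to between 2.23 and 3.59 CPM and mesoderm markers in the last from between 7.73 and 9.17 to between 14.05 and 16.5. The part of these markers was not tested.

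Of the 33 members, 11 rose in FA in all 4 lines: Slc2a1, Slc16a3, Ldha and the enzymes Pfkl, Aldoa, Tpi1, Gapdh, Pgk1, Eno1, Eno3 and Pkm. Of all genes tested, 9.18% passed higher in all 4, against 33.3% of the members. Without the replicate 1 libraries labelled ERF knockout, Eno3 did not pass in that line with RAS present (0.56, adjusted p = 0.0797). Another 3, Hk1, Eno2 and Pdha1, fell in all 4 (9.09% of the members, against 8.97% of all genes). In the reference line, Eno2 did not pass when any 1 of 3 single libraries was left out. Slc2a3, Pfkm, Pdhb and G6pdx rose in at least 1 line and fell in at least 1 other (12.1% of the members, against 6.39% of all genes).

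Slc16a3, Slc2a1 and Pfkl were called higher in FA in all 4 lines. Slc16a3 went from 1.67, 0.507 and 1.36 CPM to 52.5, 93.8 and 132 CPM in the RAS-deleted line (log2 fold change of 6.31 ± 0.45, adjusted p = 1.33e-08). In the ERF knockout line, as labelled, it went from 8.02, 4.11 and 3.52 CPM to 58.9, 36.1 and 48.5 CPM (log2 fold change of 3.18 ± 0.37, adjusted p = 2.22e-06). With RAS deleted as well, it went from 6.37, 4.59 and 4.65 CPM to 113, 108 and 95.9 CPM (log2 fold change of 4.33 ± 0.38, adjusted p = 5.4e-08). No FA library of any line came near the 2iL range. The size of the rise differed by ERF label: the difference of the log2 fold changes (knockout label minus wild type) was -2.44 ± 0.60 with RAS present (edgeR adjusted p = 0.0161) and -1.97 ± 0.64 with RAS deleted (edgeR adjusted p = 0.0312). Both kept their direction but missed the threshold in several fits with libraries left out. The first missed the threshold without replicate 1 of the ERF knockout label in 2iL (-1.98, adjusted p = 0.0612) or replicate 1 of the reference line in FA (-2.23, adjusted p = 0.0641), and without the replicate 1 (-2.17, adjusted p = 0.0711) or the replicate 2 libraries (-2.42, adjusted p = 0.0707) of the knockout label in every group. The second missed it without replicate 2 (-1.61, adjusted p = 0.0982) or 3 (-2.10, adjusted p = 0.0571) of the RAS-deleted line in 2iL, replicate 3 of that line in FA (-1.63, adjusted p = 0.0535), or replicate 1 of the ERF knockout label with RAS deleted in 2iL (-1.79, adjusted p = 0.0774), and without all replicate 1 (-1.87, adjusted p = 0.0630) or all replicate 2 libraries of that label (-2.09, adjusted p = 0.0674). With the compared groups alone and a replicate block it was -1.96 (adjusted p = 0.0901). Slc2a1 rose from 48.7, 68.8 and 74.8 CPM to 169, 281 and 327 CPM in the RAS-deleted line (log2 fold change of 2.01 ± 0.25, adjusted p = 6.48e-06). Under the ERF knockout label it went from 57.8, 51.9 and 56.1 CPM to 164, 101 and 119 CPM (log2 fold change of 1.21 ± 0.25, adjusted p = 0.000673), and with RAS deleted from 59.5, 55.2 and 58.6 CPM to 433, 433 and 324 CPM (log2 fold change of 2.78 ± 0.26, adjusted p = 9.69e-08). The last group held the highest Slc2a1 levels of the study, with no overlap with any other group except the highest RAS-deleted library in FA, which exceeded its lowest library. The rise with RAS deleted, under the knockout label, exceeded that with RAS present by 1.57 ± 0.35 on the log2 scale (edgeR adjusted p = 0.00796), and by 1.70 (adjusted p = 0.0548) without the replicate 1 and 1.36 (adjusted p = 0.160) without the replicate 2 libraries of that label.

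Pfkl rose in every line, and Pfkp fell in all but the RAS-deleted line. In the RAS-deleted line Pfkl went from 34.0, 35.9 and 35.5 CPM to 99.3, 106 and 110.4 CPM, a rise smaller than that of the reference line by 1.02 on the log2 scale (interaction -1.02 ± 0.12, edgeR adjusted p = 9.28e-07). Pfkp there stood at 255, 247 and 259.9 CPM in 2iL and 270.1, 252 and 192 CPM in FA, a log2 fold change of -0.09 ± 0.16 that did not pass (interaction 1.25 ± 0.24, edgeR adjusted p = 0.000604). With all 4 replicate 1 libraries of wild type ERF left out, that interaction was 0.82 (adjusted p = 0.0524). For ERF knockout, as labelled, Pfkl went from 57.4, 54.0 and 53.5 CPM to 199, 169.7 and 187 CPM, and Pfkp from 307, 271 and 252 CPM to 109.7, 112 and 91.1 CPM (log2 fold change of -1.41 ± 0.16, adjusted p = 5.1e-07). With RAS deleted as well, Pfkl went from 60.5, 60.4 and 64.0 CPM to 173, 180.3 and 160.1 CPM and Pfkp from 290.4, 296 and 285 CPM to 80.8, 74.7 and 114 CPM (log2 fold change of -1.69 ± 0.16, adjusted p = 3.09e-08). Pfkl made up 54.6% ± 3.38 and 56.6% ± 3.36 (SD, n = 3 each) of phosphofructokinase TPM in FA under the ERF knockout label, without and with RAS deletion, and 29.2% ± 4.83 (SD, n = 3) in the RAS-deleted line.

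Hk2, Ldhb and Mpc1 also passed as lower in FA in all lines but the RAS-deleted one, where none of them passed. Hk2 in the RAS-deleted line was at 186, 228 and 238 CPM in 2iL and 202, 248 and 286 CPM in FA, ranges that overlap, and the change differed from that of the reference line by 1.34 ± 0.17 (edgeR adjusted p = 3.24e-06). It fell under the ERF knockout label (log2 fold change of -1.29 ± 0.11, adjusted p = 3.93e-09) and under that label with RAS deleted (log2 fold change of -1.23 ± 0.11, adjusted p = 4.81e-09). Ldhb in the RAS-deleted line was at 89.4, 112 and 121 CPM in 2iL and 109.8, 118 and 101 CPM in FA, with an interaction of 1.25 ± 0.18 (edgeR adjusted p = 1.28e-05). Mpc1 there went from 21.7, 14.1 and 16.5 CPM to 15.4, 12.7 and 13.7 CPM, and the ranges overlap (interaction 1.52 ± 0.26, edgeR adjusted p = 0.000123). Ldhb fell by 1.27 and Mpc1 fell by 1.43 on the log2 scale under the ERF knockout label, and both passed. With RAS deleted as well the log2 fold changes were -0.92 ± 0.12 and -1.81 ± 0.18, both passing. 

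Hk1 fell in FA in every line. In the RAS-deleted line it went from 129, 130.4 and 133 CPM to 98.8, 58.9 and 46.3 CPM (log2 fold change -0.95 ± 0.18), a fall just short of 2-fold. In the other lines it fell to 38.1, 39.4 and 30.6 CPM under the ERF knockout label (log2 fold change of -1.91 ± 0.19, adjusted p = 1.23e-07) and to 36.2, 40.2 and 42.1 CPM with RAS deleted as well (log2 fold change of -1.93 ± 0.19, adjusted p = 6.58e-08). The pair of enolases expressed at low levels moved apart. Eno2 went from 9.18, 11.97 and 11.9 CPM to 5.05, 6.04 and 4.82 CPM under the ERF knockout label (log2 fold change of -1.05 ± 0.25, adjusted p = 0.00137) and from 11.4, 16.9 and 12.5 CPM to 3.83, 3.59 and 4.19 CPM with RAS deleted (log2 fold change of -1.81 ± 0.25, adjusted p = 2.88e-06). Eno3 in the last line went from 4.89, 3.86 and 5.73 CPM to 16.6, 19.02 and 15.6 CPM (log2 fold change of 1.83 ± 0.18, adjusted p = 1.21e-08), its highest values in the study. Ldha rose there from 119.8, 114 and 116 CPM to 329, 354 and 242 CPM (log2 fold change of 1.40 ± 0.16, adjusted p = 4.52e-07), and its rise was 0.86 ± 0.16 in the RAS-deleted line and 0.68 ± 0.16 under the ERF knockout label with RAS present. Mpc2 fell from 13.4, 13.4 and 14.6 CPM to 5.73, 5.88 and 4.68 CPM in the last line (log2 fold change of -1.34 ± 0.13, adjusted p = 1.38e-08). Of the abundant enzymes, Tpi1 and Pgk1 were called under the ERF knockout label, with log2 fold changes of 1.20 and 1.22 with RAS present and 1.20 and 1.09 with RAS deleted. Eno1 and Pkm were called after RAS deletion, at 1.40 and 1.11 with wild type ERF and 1.46 and 1.30 under the knockout label. With Eno1b counted in, the Eno1 values were 1.40 and 1.46.

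Over all members, 18 of 33 (against 24.5% of all genes) had a medium response that differed between the RAS-deleted and the reference line, 8 of them by at least 2-fold (against 11.9%). Under the ERF knockout label, 8 members had a medium response that differed with RAS deletion (against 13.1%), 2 of them by at least 2-fold (against 4.59%): Slc2a1 and Eno3. That count of 8 became 4 or 5 when 1 of 6 libraries was left out: replicate 1 of the ERF knockout label in 2iL (5), replicate 2 of that label in FA (4), and, with RAS deleted, replicates 2 (4) and 3 (5) in 2iL and 1 (4) and 2 (5) in FA. Without all replicate 1 libraries of the label it was 2 (against 3.32% of the genes tested there), with 1 called (against 1.81%). Without all replicate 2 libraries it was 0 (against 1.85%), with none called, and the Eno3 difference was 1.00 (adjusted p = 0.125). In a fit of the compared groups alone it was 15 (against 24%).

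**Figure D2:**
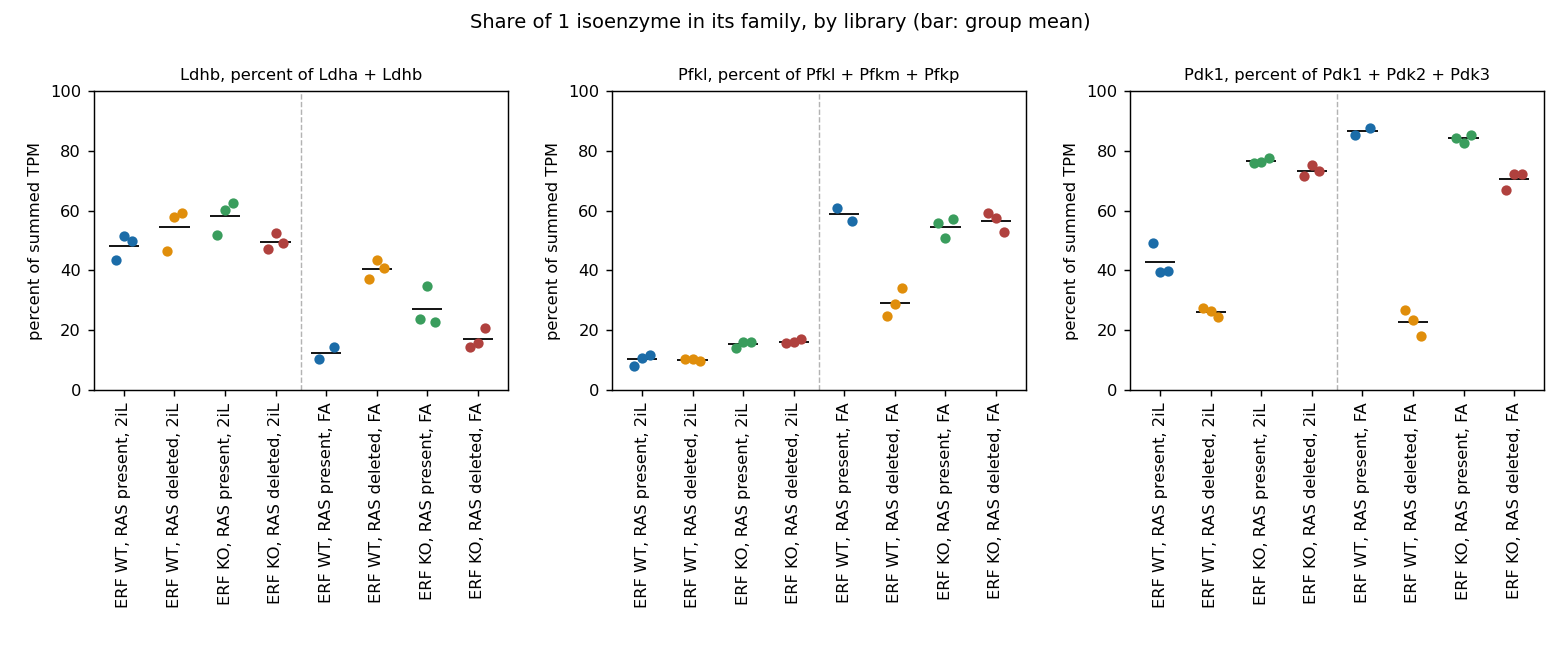
Each point is 1 library and the vertical axis is the percent of an isoenzyme family's summed TPM that 1 gene contributes, with a bar at the group mean, for lactate dehydrogenase, phosphofructokinase and the pyruvate dehydrogenase kinases. The Ldhb share fell from 48.3% to 12.4% between 2iL and FA in the reference line and from 54.6% to 40.5% in the RAS-deleted line, and the Pdk1 share lies at 18.1 to 27.3% in the 6 libraries of the RAS-deleted line.

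Pdk1 had the largest log2 change among the members with RAS deletion when ERF was wild type, and between the ERF labels in 3 of 4 comparisons. In the RAS-deleted line it stood at 9.25, 6.90 and 8.03 CPM in 2iL and 11.4, 10.8 and 10.2 CPM in FA, where the reference line had reached 149.8 and 148 CPM. Its rise in FA was 0.43 ± 0.14 on the log2 scale in that line, which missed the threshold with either of 2 single libraries left out, against 3.31 ± 0.13 in the reference line. The difference of the responses was -2.88 ± 0.20 (edgeR adjusted p = 4.58e-10). Under the ERF knockout label, Pdk1 was already at 80.6, 82.6 and 86.6 CPM in 2iL, where the MEK inhibitor is present, and at 137, 134 and 139 CPM in FA. With RAS deleted under that label it was at 76.8, 86.5 and 87.8 CPM in 2iL and 72.7, 80.2 and 85.1 CPM in FA, so the FA libraries did not rise above the 2iL libraries (log2 fold change -0.08 ± 0.11, not passing). All libraries under the ERF knockout label lay above all libraries with wild type ERF except the 2 reference libraries in FA. The medium response under the knockout label differed from that with wild type ERF by -2.60 ± 0.18 with RAS present (edgeR adjusted p = 1.42e-08) and by -0.50 ± 0.18 with RAS deleted (edgeR adjusted p = 0.0443), the second of which missed the threshold with any 1 of 8 single libraries left out. The interaction of medium with the ERF label passed for 10 members with RAS present (against 9.34% of all genes), 2 of them by at least 2-fold (against 4.27%), and for 14 with RAS deleted (against 26.4%), 6 of them by at least 2-fold (against 11.3%). With RAS present the counts of 10 and 2 became 6 and 1 without replicate 1 of the ERF knockout label in 2iL, and 1 was called without replicate 1 of the reference line in FA. Without all replicate 1 libraries labelled ERF knockout they were 3 (against 5.36% of the genes tested there) and 1 (against 3.09%), and without all replicate 2 libraries also 3 (against 4%) and 1 (against 2.3%). With RAS deleted the 14 became 9 without the replicate 2 libraries (against 17.3%).

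Deleting RAS in 2iL moved few members in the fit of all libraries. With wild type ERF, 3 members passed (1 higher, 2 lower), against 5.7% of all genes (2.55% and 3.15%), and none was called, against 1.2%. They were Pdk1, Hk2 and G6pdx. Pdk1 fell from 19.5, 13.6 and 11.5 CPM to 9.25, 6.90 and 8.03 CPM (log2 fold change of -0.90 ± 0.14, adjusted p = 0.000646), with no overlap, as in 97.6% of all genes that passed here. The neural markers summed to 4.52 to 6.09 CPM with RAS deleted and 8.59 to 13.4 with RAS present, and the mesoderm markers to 8.12 to 9.44 and 5.30 to 7.90, and their part was not tested. Hk2 fell by 0.39 ± 0.11 and G6pdx rose by 0.32 ± 0.08 on the log2 scale, and each missed the threshold with any 1 of 5 libraries left out. The number that passed was 1 without replicate 2 of the reference line or without replicate 2 or 3 of that line after OHT, and 1 member was called without replicate 3 of the reference line or replicate 1 of the RAS-deleted line. The next largest difference was that of Slc16a3, -0.56 ± 0.65, which did not pass. Under the ERF knockout label no member passed in edgeR's test, against 1.31% of all genes, and none was called, against 0.211%. At an unadjusted p under 0.05 there were 6 (against 14.6% of all genes), and DESeq2's Wald test passed 2 (against 2.84%). In a fit of the compared groups alone 4 passed (against 5.76% of the genes tested there), and with a block for the replicate number, which the labels do not say pairs libraries, 13 passed (against 19.9%). The same blocked fit passed 9 members with wild type ERF (against 16.5%). In these groups the general pluripotency markers summed to 1186 to 1259 CPM with RAS deleted and 1045 to 1122 with RAS present, the naive markers to 2249 to 2549 and 2049 to 2167, and the epiblast-like markers to 96.6 to 101 and 87.4 to 95.8, and their part was not tested. The largest differences were those of Ldhb, -0.40 ± 0.12, and Pfkfb3, -0.40 ± 0.18. Of all members, 2 had an effect of RAS deletion in 2iL that differed by ERF label (against 1.57% of all genes), Pdk1 by 0.91 ± 0.18 and Hk2 by 0.74 ± 0.16, and none by at least 2-fold (against 0.378%). At an unadjusted p under 0.05 there were 5 (against 17% of all genes). The count of 2 that passed fell to 1 without replicate 2 of the reference line, of the RAS-deleted line or of the ERF knockout label in 2iL, or replicate 3 of that label with RAS deleted, and to 0 without replicate 2 of the last group, or without all replicate 1 or all replicate 2 libraries of the label (against 0.322% and 0.0645% of the genes tested there). One member was called without replicate 3 of the reference line or replicate 1 of the RAS-deleted line.

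In FA, the deletion of RAS moved most members when ERF was wild type. In that line 24 of 33 passed, 9 higher and 15 lower, against 41.3% of all genes (19.9% and 21.5%), and 5 were called, against 17.3%. The 5 became 8 with replicate 1 or replicate 3 after OHT left out, 9 without replicate 2 of the reference line in FA, and 8 without all replicate 1 libraries of wild type ERF. Leaving out replicate 2 of the reference line leaves 1 library there, which the fit assumes to vary like the other groups. The median log2 fold change was -0.30 over the members and 0.00 over all genes. The 7 naive markers summed to 801 to 1248 CPM in this RAS-deleted group and to 102 to 134 CPM in the reference line. The 5 epiblast-like markers stood at 271 to 501 against 844 to 854 CPM and the 4 general pluripotency markers at 1218 to 1275 against 894 to 1004. The 3 mesoderm markers stood at 7.06 to 11.8 against 15.3 to 18.99, the 5 fibroblast feeder markers at 2.23 to 3.59 against 4.40 to 5.33, the 4 primitive endoderm markers at 6.94 to 10.3 against 39.5 to 75.9, the 2 neural markers at 11.8 to 21.4 against 47.5 to 47.9 and the 4 trophoblast markers at 5.65 to 12.4 against 21.5 to 25.3 CPM. Their part in these differences was not tested. All 9 members of upper glycolysis passed, 6 lower and 3 higher, though Aldoa missed the threshold with any 1 of 3 single libraries left out. Pdk1 was 13.8-fold lower with RAS deleted (log2 fold change of -3.78 ± 0.14, adjusted p = 1.26e-14). Aldoc was at 4.995, 4.01 and 2.70 CPM against 10.7 and 17.3 CPM (log2 fold change of -1.85 ± 0.21, adjusted p = 3.16e-07), and Pfkl at 99.3, 106 and 110.4 CPM against 214 and 246 CPM (log2 fold change of -1.13 ± 0.09, adjusted p = 4.22e-10). Of the genes called higher, Ldhb was at 109.8, 118 and 101 CPM against 37.6 and 48.4 CPM (log2 fold change of 1.35 ± 0.14, adjusted p = 4.49e-08) and Mpc1 at 15.4, 12.7 and 13.7 CPM against 6.08 and 6.01 CPM (log2 fold change of 1.21 ± 0.20, adjusted p = 4.12e-05). The RAS-deleted and RAS-present ranges of these 5 genes did not overlap, as was so for 98.3% of all genes called here. Short of 2-fold, Ldha, Tpi1 and Pgk1 fell by 0.94, 0.97 and 0.99 on the log2 scale, and Hk1, Hk2 and Pfkp rose by 0.97 ± 0.21, 0.95 ± 0.13 and 0.95 ± 0.18. Slc2a1 (0.19 ± 0.27) and Slc16a3 (0.13 ± 0.33) did not pass.

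The same deletion in FA was then examined under the ERF knockout label. Of 33 members, 18 passed, 11 higher and 7 lower, against 26.4% of all genes (12.7% and 13.7%), and 2 were called, against 6.88%. Without the replicate 1 libraries of that label 10 passed (against 11.4% of the genes tested there), and without its replicate 2 libraries 8 passed (against 9.2%) and 1 was called (against 3.4%). The 2 were the transporters. Slc2a1 was at 433, 433 and 324 CPM with RAS deleted against 164, 101 and 119 CPM (log2 fold change of 1.63 ± 0.25, adjusted p = 0.000171), and the ranges did not overlap, as in 97.6% of all genes called here. Slc16a3 was at 113, 108 and 95.9 CPM against 58.9, 36.1 and 48.5 CPM (log2 fold change of 1.14 ± 0.30, adjusted p = 0.0113), also without overlap, but without replicate 2 of the ERF knockout label in FA the difference was 0.96 (adjusted p = 0.0624), and without all replicate 2 libraries of the label 0.95 (adjusted p = 0.166). Ldha rose by 0.82 ± 0.16, Eno3 by 0.97 ± 0.17 and Eno1 by 0.66 ± 0.11 on the log2 scale. Pdk1 fell from 137, 134 and 139 CPM to 72.7, 80.2 and 85.1 CPM, by 0.78 on the log2 scale (edgeR adjusted p = 3.61e-05). The 4 primitive endoderm markers summed to 44.2 to 54.3 CPM with RAS present and 10.4 to 19.2 CPM with RAS deleted in these groups, the 2 neural markers to 39.3 to 48.3 and 97.3 to 101 CPM, and the 4 trophoblast markers to 38.6 to 57.1 and 22.05 to 32.1 CPM. The epiblast-like markers summed to 559 to 605 and 645 to 689 CPM, the mesoderm markers to 7.30 to 9.25 and 14.05 to 16.5, and the feeder markers to 4.18 to 4.97 and 6.05 to 7.43, again with RAS present first. Their part in the result was not tested.

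The 2 effects of RAS deletion in FA come from different libraries, and their difference was tested directly. It passed for 24 of 33 members, against 28% of all genes, 16 in the positive direction (knockout label minus wild type; 14.4% of all genes) and 8 in the negative (13.6%). It was at least 2-fold for 11, against 13.7%. All 9 genes of upper glycolysis and 6 of 7 in lower glycolysis passed. Of the former, Hk1 and Pfkm each missed the threshold with any 1 of 4 single libraries left out. Aldoa missed it with any 1 of 3, Hk2 with either of 2 and Gpi1 with 1. The median difference was 0.42 over the members and 0.02 over all genes. Pdk1 differed most, 3.00 ± 0.18 (edgeR adjusted p = 1.22e-10), since it fell 13.8-fold with wild type ERF and 1.72-fold under the knockout label. Ldha fell with wild type ERF and rose under the knockout label, with a difference of 1.76 ± 0.23 (edgeR adjusted p = 1.49e-05). Tpi1 fell with wild type ERF, and its change under the knockout label, 0.27 ± 0.10, did not pass (difference 1.24 ± 0.16). Eno3 fell by 0.57 on the log2 scale with wild type ERF, a fall that missed the threshold with any 1 of 3 libraries left out, and rose by 0.97 under the knockout label (difference 1.55 ± 0.25). Ldhb and Mpc1 rose with wild type ERF, while under the knockout label their changes of -0.04 ± 0.12 and -0.12 ± 0.19 did not pass. Their differences were -1.39 ± 0.18 and -1.33 ± 0.27, both passing. Slc2a1, which rose under the knockout label, differed by 1.44 ± 0.36 (edgeR adjusted p = 0.00618). That difference missed the threshold in a fit of the compared groups alone with a replicate block (1.40, adjusted p = 0.0767) and without all replicate 2 libraries of the knockout label (1.21, adjusted p = 0.0667). Aldoc differed by 1.09 ± 0.28, which dropped to 0.68 (adjusted p = 0.0845) without replicate 2 of the reference line in FA. Slc16a3, Slc2a3, Slc16a1, Eno2, Pfkfb2, Pfkfb4, Pdhb, Pdk2 and Pdk3 did not pass this test.

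**Figure D3:**
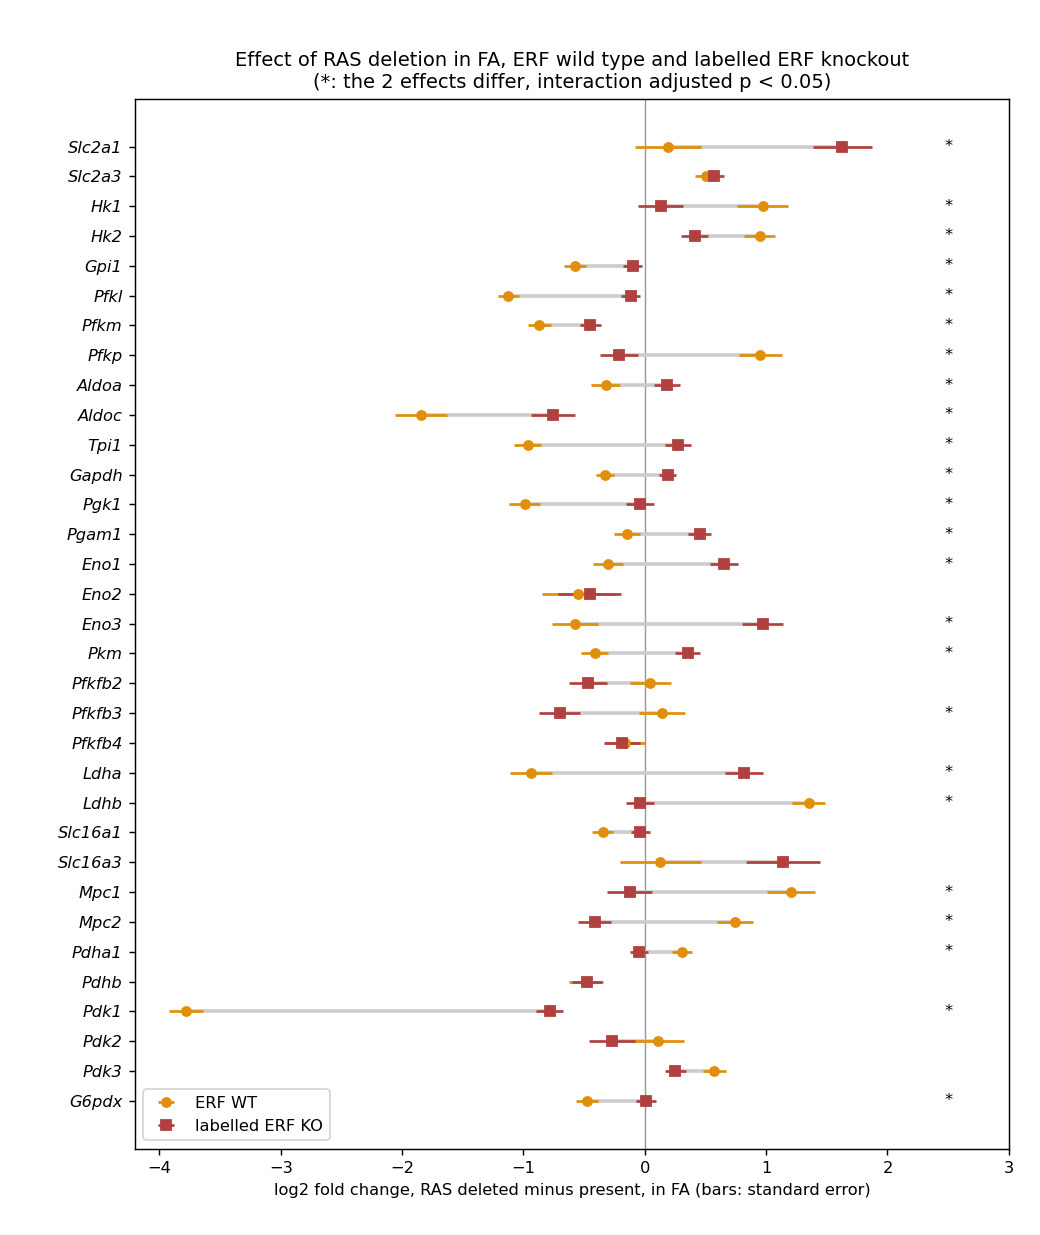
Each row is a member, and the horizontal axis is the log2 fold change for RAS deleted minus RAS present in FA, with wild type ERF (circles) and under the ERF knockout label (squares). Bars are standard errors, and asterisks mark the 24 members for which the 2 effects differ. Pdk1 lies at -3.78 and -0.78, and Ldha at -0.94 and 0.82.

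The ERF label itself was compared in each state. In 2iL with RAS present, 11 members passed, 8 higher and 3 lower under the knockout label, against 27.8% of all genes (13.3% and 14.6%), and 2 were called, against 9.72%. Without the replicate 1 libraries labelled ERF knockout, 6 passed (against 20.1% of the genes tested there) and 1 was called (against 8.27%). In these groups the 4 trophoblast markers summed to 16.1 to 42.5 CPM under the knockout label and 3.86 to 10.6 with wild type ERF, the 2 neural markers to 16.1 to 19.9 and 8.59 to 13.4, and the 4 primitive endoderm markers to 19.85 to 44.95 and 11.2 to 19.4. The naive markers summed to 2049 to 2167 and 2179 to 2515 CPM and the epiblast-like markers to 87.4 to 95.8 and 100 to 114, in the same order. Their part in the result was not tested. The called members were Pdk1, at 80.6, 82.6 and 86.6 CPM against 19.5, 13.6 and 11.5 CPM (log2 fold change of 2.47 ± 0.13, adjusted p = 2.39e-11), and Slc16a3, at 8.02, 4.11 and 3.52 CPM against 2.42, 1.55 and 1.02 CPM (log2 fold change of 1.61 ± 0.49, adjusted p = 0.0231). The ranges of both were apart, as were those of 95.9% of all genes called here, but Slc16a3 missed the threshold without replicate 2 (1.56, adjusted p = 0.0610) or 3 (1.35, adjusted p = 0.0944) of the reference line in 2iL or replicate 1 of the knockout label (1.16, adjusted p = 0.134), or without all replicate 1 libraries of that label (1.17, adjusted p = 0.143), each of which leaves 1 member called. In 2iL with RAS deleted, 17 passed, 14 higher and 3 lower, against 39.1% (19.2% and 19.9%), and 3 were called, against 13%. Here the trophoblast markers summed to 17.5 to 26.35 CPM under the knockout label and 6.24 to 8.93 with wild type ERF, the neural markers to 14.1 to 17.5 and 4.52 to 6.09, the primitive endoderm markers to 15.02 to 20.3 and 9.24 to 14.95, and the general pluripotency markers to 1186 to 1259 and 1063 to 1155. The part of these in the result was not tested. Pdk1 was at 76.8, 86.5 and 87.8 CPM against 9.25, 6.90 and 8.03 CPM (log2 fold change of 3.38 ± 0.14, adjusted p = 3.25e-13), and Slc16a3 at 6.37, 4.59 and 4.65 CPM against 1.67, 0.507 and 1.36 CPM (log2 fold change of 2.15 ± 0.56, adjusted p = 0.00571). The third was the enolase Eno2, at 11.4, 16.9 and 12.5 CPM against 7.37, 5.78 and 4.65 CPM (log2 fold change of 1.20 ± 0.25, adjusted p = 0.000606). All 3 were higher under the knockout label without overlap, as 97.5% of all genes called here showed none. Pfkl, Aldoc and Pgk1 rose by less than 2-fold in both of these comparisons, with log2 differences of 0.53, 0.87 and 0.41 with RAS present and of 0.81, 0.89 and 0.62 with RAS deleted. Pgk1 with RAS present did not pass without the replicate 1 libraries of the knockout label. Pfkfb3 fell in both, by 0.57 and 0.67 on the log2 scale, and the first missed the threshold with either of 2 libraries left out.

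The ERF label was next compared in FA, first with RAS present. Of 33 members, 12 passed, 1 higher and 11 lower under the knockout label, against 9.78% of all genes (4.37% and 5.4%), and 1 was called, against 2.36%. The called gene was Ldha, at 196, 131 and 199 CPM against 414 and 359 CPM (log2 fold change of -1.14 ± 0.17, adjusted p = 0.000604), without overlap, as in 98.5% of all genes called here. The number that passed was 7 without replicate 1 of the reference line and 5 without replicate 2 of the knockout label, and 2 members were called without replicate 1 of the knockout label and 0 without its replicate 2, where Ldha still passed but at -0.96, just under 2-fold. Without all replicate 2 libraries of the label 3 passed (against 2.2% of the genes tested there) and none was called (against 0.759%), with Ldha passing at -0.97. With the compared groups alone 7 passed (against 4.21%). The trophoblast markers summed to 38.6 to 57.1 CPM under the knockout label and 21.5 to 25.3 with wild type ERF, the epiblast-like markers to 559 to 605 and 844 to 854, the general pluripotency markers to 797 to 855 and 894 to 1004, and the mesoderm markers to 7.30 to 9.25 and 15.3 to 18.99. Their part was not tested. Lower members included Tpi1 (-0.64 ± 0.11) and Pgam1 (-0.54 ± 0.10), while Pfkm was higher (0.42 ± 0.10) and missed the threshold with 1 library left out. Pdk1 did not pass here (-0.13 ± 0.13). With RAS deleted in FA, 24 passed, 13 higher and 11 lower, against 42.8% (21.6% and 21.3%), and 6 were called, against 16.6%. Higher under the knockout label were Pdk1, 7.33-fold (log2 fold change of 2.87 ± 0.13, adjusted p = 2.19e-13), Aldoc, at 10.1, 10.9 and 10.7 CPM against 4.995, 4.01 and 2.70 CPM (log2 fold change of 1.44 ± 0.20, adjusted p = 3.38e-06), and Eno3, at 16.6, 19.02 and 15.6 CPM against 4.95, 5.80 and 8.73 CPM (log2 fold change of 1.39 ± 0.17, adjusted p = 6.97e-07). Lower were Mpc1, at 4.80, 4.90 and 5.68 CPM against 15.4, 12.7 and 13.7 CPM (log2 fold change of -1.45 ± 0.18, adjusted p = 6.45e-07), Pfkp, at 80.8, 74.7 and 114 CPM against 270.1, 252 and 192 CPM (log2 fold change of -1.40 ± 0.16, adjusted p = 7.05e-07), and Ldhb, at 44.0, 52.1 and 51.1 CPM against 109.8, 118 and 101 CPM (log2 fold change of -1.16 ± 0.12, adjusted p = 4.45e-08). The groups did not overlap for any of the 6, as was so for 96.3% of all genes called here. The naive markers summed to 114 to 149 CPM under the knockout label and to 801 to 1248 CPM with wild type ERF in this comparison. The epiblast-like markers stood at 645 to 689 against 271 to 501 CPM and the general pluripotency markers at 781 to 815 against 1218 to 1275. The mesoderm markers stood at 14.05 to 16.5 against 7.06 to 11.8 CPM, the feeder markers at 6.05 to 7.43 against 2.23 to 3.59, the primitive endoderm markers at 10.4 to 19.2 against 6.94 to 10.3, the neural markers at 97.3 to 101 against 11.8 to 21.4, and the trophoblast markers at 22.05 to 32.1 against 5.65 to 12.4. The part of these markers in it was not tested.

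**Figure D4:**
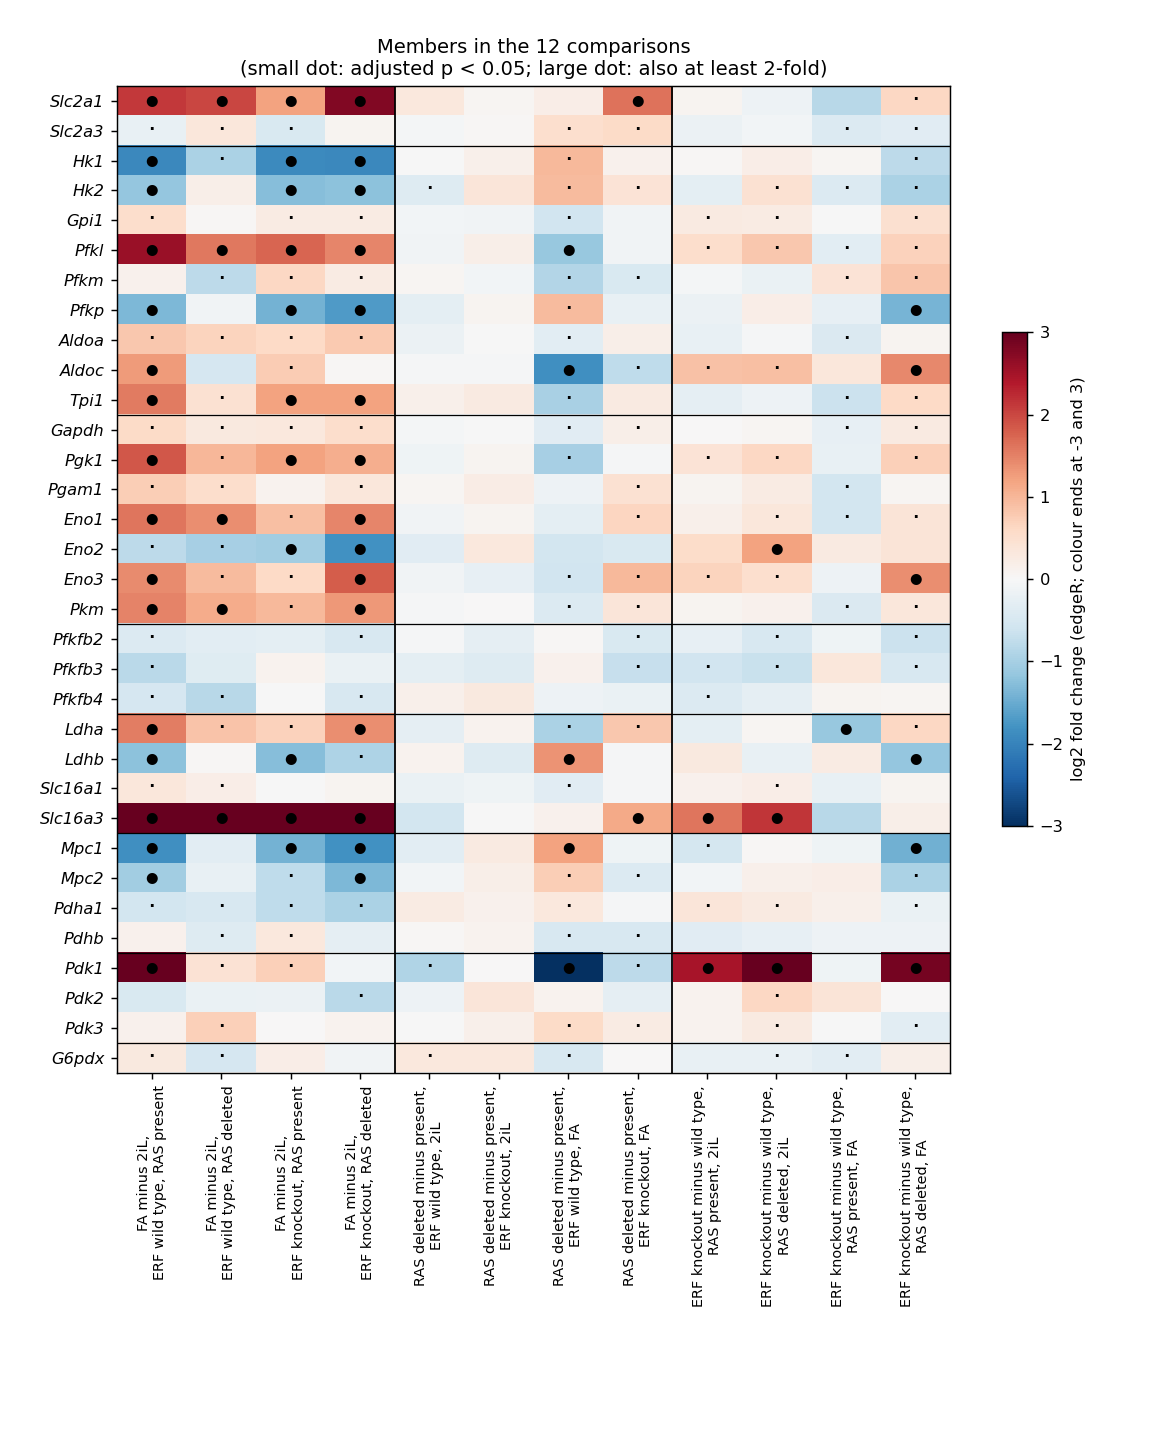
Rows are the 33 members in order of their role and columns are the 12 comparisons. Colour gives the log2 fold change, with colours ending at -3 and 3, a small dot marks a member that passed the test and a large dot one that also changed by at least 2-fold. Slc2a1, Slc16a3 and Pfkl have a large dot in all 4 columns for medium, and the 2 columns for RAS deletion in 2iL hold 3 small dots and no large dot.

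Across the 12 comparisons there were 211 results that passed and 67 that were called, spread over 18 members. As shares of all member results these were 53.3% and 16.9%, against 32.4% and 12.7% of the results of all genes. The other 15 members were called in none. Among them, Slc2a3 ran from 573 to 1236 CPM over all libraries, and its medium response went opposite ways: it fell in the reference line and under the ERF knockout label (-0.23 and -0.45 on the log2 scale) and rose in the RAS-deleted line (0.34). Pfkm fell in the RAS-deleted line in FA (-0.79) and rose under the knockout label (0.62), and G6pdx rose by 0.29 in the reference line and fell by 0.51 in the RAS-deleted line. Pdhb fell in the RAS-deleted line (-0.38) and rose under the knockout label (0.31), and both missed the threshold with at least 3 single libraries left out in turn. Pdha1 fell in FA in all 4 lines, by 0.54, 0.47, 0.76 and 0.95 on the log2 scale. Gapdh rose in FA in all 4, with log2 fold changes of 0.57, 0.30, 0.32 and 0.52. Pfkfb2, Pfkfb3 and Pfkfb4 lay between 2.15 and 17.9 CPM over all libraries, with log2 fold changes from -0.83 to 0.35, and passed in 5, 5 and 4 of the 12 comparisons. Aldoa, at 522 to 1344 CPM, passed in 6, Gpi1, at 246 to 456 CPM, in 7, and Pgam1, at 186 to 375 CPM, in 5. Slc16a1, at 74.3 to 126 CPM, passed in 4. Of the kinases, Pdk2, at 3.42 to 8.23 CPM, passed in 2 and Pdk3, at 17.4 to 30.1 CPM, in 5.

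Other genes of the pathway, its known regulators and HIF targets outside glycolysis were taken as context, from lists drawn up for this purpose. Of 47 other pathway genes, 39 were tested, and 18 passed in the reference line's change of medium, 10 higher and 8 lower (46.2%, against 49.5% of all genes), with a median log2 fold change of 0.10, beside 0.03 over all genes. The largest called changes were those of Hkdc1, a hexokinase-like gene (3.69 ± 0.49), Pgam2, the muscle phosphoglycerate mutase (2.59 ± 0.35), and Emb, which encodes embigin, a partner protein of lactate transporters (2.34 ± 0.31). Emb lay at 18.1 to 23.1 CPM in 2iL and 94.2 to 114 CPM in FA, and it rose in the other 3 lines too. Of 19 regulators, 12 passed, 7 higher and 5 lower (63.2%), with a median of 0.17. Myc, at 0.175 to 0.604 CPM in 2iL, rose to 35.5 to 46.4 CPM in FA (6.86 ± 0.53), and in the RAS-deleted line it reached 0.833 to 5.32 CPM in FA, a difference from the reference line of -3.93 ± 0.40. Lin28a, an RNA-binding protein, lay at 3.71 to 8.45 CPM in 2iL and 305 to 367 CPM in FA (5.70 ± 0.40), and Esrrb, which is also a naive marker, lay at 420.0 to 449.6 CPM and 22.3 to 31.9 CPM (it fell by 4.00 on the log2 scale). In FA the RAS-deleted line had Esrrb at 173 to 221 CPM. Of 16 HIF targets outside glycolysis, 13 passed, 10 higher and 3 lower (81.2%, against the same 49.5%), with a median of 0.86. Bnip3, a mitophagy gene, rose in all 4 lines, by 2.95, 2.10, 2.02 and 1.96 on the log2 scale. Egln3, a prolyl hydroxylase that acts on HIF and is also in the regulator list, rose by 2.58, 1.27, 2.24 and 2.27. Adm, at most 1.80 CPM, passed in the reference line (2.82 ± 0.48) and in none of the other 3. With RAS deleted in FA and wild type ERF, 9 of the 16 HIF targets passed, 2 higher and 7 lower (56.2%, against 41.3% of all genes). For the same deletion under the ERF knockout label 5 passed, 2 higher and 3 lower (31.2%, against 26.4%). The medians were -0.31 and 0.03, beside 0.00 over all genes in both.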

How the data were processed

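RNA was measured in 23 libraries of mouse embryonic stem cells, depleted of ribosomal RNA and sequenced as stranded pairs, per the labels' protocols. The submitters' processing notes name bcl2fastq 2.20.0, fastp 0.20.0 and Salmon (no version stated) with build mm10. The transcriptome used is not given in the sources used here. The authors deposited expected (estimated) counts, TPM and effective lengths per gene for each library, and a count matrix whose deposited counts equal the estimated counts rounded to whole numbers. Salmon divides reads shared by near-identical genes, so such genes are uncertain. The matrix was tested as deposited.

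Depth was 16.2 to 29.9 M counts per library, of which the non-coding RNA Gm26917 took 17.6 to 27.9%. The groups come from the labels. All 23 libraries were fitted together with edgeR 4.0.16 (R 4.3.3, limma 3.58.1; filterByExpr, TMM, robust quasi-likelihood test), with a coefficient for each group, giving 12 comparisons and 6 interactions. A member passed at an adjusted p (Benjamini-Hochberg over 20372 genes) under 0.05 and was called if it also changed at least 2-fold. Errors of log2 fold changes are standard errors. CPM use TMM-scaled library sizes. Members called in any of the 12 comparisons are given library by library, others by range. Each context list names up to 3 genes with the largest change called in the reference line. DESeq2 1.42.0, other filters, fits of the compared groups alone, a replicate block, libraries left out and an effective length offset were alternatives. The fit was tested on simulated data. Library pairs within groups differed by more than counting noise (chi-square per degree of freedom 3.04 to 44.9 over 22 pairs). The members and lists were chosen with earlier results of these data known. A further targeted gene is not reported here.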

Additional observations from a re-analysis of the deposited data

Results flagged for a closer look

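A response that differed by at least 2-fold between lines, by the test of the difference itself (edgeR's interaction term, adjusted p under 0.05), was found 29 times over 5 interactions. All values are differences of log2 fold changes, and none was weighed for a cause. With wild type ERF, the response to FA in the RAS-deleted line minus that of the reference line was 1.34 for Hk2, -1.02 for Pfkl, 1.25 for Pfkp, -1.80 for Aldoc, -1.11 for Tpi1, 1.25 for Ldhb, 1.52 for Mpc1 and -2.88 for Pdk1. Under the ERF knockout label the same difference was 1.57 for Slc2a1 and 1.22 for Eno3. The response to FA under the ERF knockout label minus that with wild type ERF was, with RAS present, -2.44 for Slc16a3 and -2.60 for Pdk1. With RAS deleted it was -1.40 for Hk2, 1.05 for Pfkm, -1.60 for Pfkp, -1.97 for Slc16a3, -1.49 for Mpc1 and -1.11 for Mpc2. The effect of RAS deletion in FA under the knockout label minus that with wild type ERF was 1.44 for Slc2a1, 1.01 for Pfkl, -1.17 for Pfkp, 1.09 for Aldoc, 1.24 for Tpi1 and 1.55 for Eno3. At the lactate and pyruvate steps it was 1.76 for Ldha, -1.39 for Ldhb, -1.33 for Mpc1, -1.15 for Mpc2 and 3.00 for Pdk1. Several of these share libraries, so they are not independent. Dixon's criterion for a single outlying library was not applied, since it was set for groups of at least 4 and these hold 2 or 3.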

How the results depend on the processing

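No member result that passed changed direction under any of 70 alternative fits, 18 of which changed 2 choices together (the compared groups alone and a replicate block). Of 67 calls in the 12 comparisons, 2 missed the test's threshold under at least 1 alternative, as did 7 of 29 calls in the interactions, and of 211 results that passed, 73 did not pass under at least 1. Counts that moved by more than 1.5 times were these, with the share of all genes tested in that fit in brackets, and the cause was not tested. With no filter on low counts, members passing became 5 (4.96%, from 3) for RAS deletion in 2iL with wild type ERF, 2 (2.41%, from 0) for the same under the ERF knockout label, and 17 (14.5%, from 11) for the ERF label in 2iL with RAS present. RAS deletion in 2iL under the knockout label gave 1 member (2.84%) with at least 50 counts in 3 libraries, 2 (1.95%) with a replicate block, 2 (2.84%) with DESeq2's Wald test, 4 (5.76%) with the compared groups alone and 13 (19.9%) with those and a replicate block. An offset for effective length gave 1 member passing (3.12%) and 1 called (0.957%) for RAS deletion in 2iL with wild type ERF, 10 passing (33.6%, from 17) for the ERF label in 2iL with RAS deleted, and 1 called (0.226%, from 0) for the interaction of RAS and ERF in 2iL. With the compared groups alone, 7 members (4.21%, from 12) passed for the ERF label in FA with RAS present and 15 (24%, from 8) for medium by RAS under the knockout label. With a replicate block as well, RAS deletion with wild type ERF gave 9 passing in 2iL (16.5%) and 8 called in FA (15.7%), and medium by RAS under the knockout label gave 17 (28.6%). Without the replicate 1 libraries of wild type ERF, 9 members (17.3%, from 5) were called for medium in the RAS-deleted line and 8 (17.3%, from 5) for RAS deletion in FA. Without those labelled ERF knockout, passing counts became 10 (11.4%, from 18) for RAS deletion in FA under that label, 0 (0.322%) for RAS by ERF in 2iL, 6 (20.1%) for the ERF label in 2iL with RAS present, 2 (3.32%) for medium by RAS under the label and 3 (5.36%) for medium by ERF with RAS present, and in each of the last 3 comparisons 1 member (from 2) was called (8.27%, 1.81% and 3.09%). Without the replicate 2 libraries of that label, 8 passed (9.2%) and 1 was called (3.4%) for RAS deletion in FA, 3 (2.2%) and 0 (0.759%) for the ERF label in FA with RAS present, 0 (1.85%) and 0 (1.18%) for medium by RAS, 3 (4%) and 1 (2.3%) for medium by ERF with RAS present, and 9 passed (17.3%, from 14) for the same with RAS deleted and 0 (0.0645%) for RAS by ERF in 2iL. Apart from counts, and beyond the spread between libraries (1 SD), the TPM-based summed ratios of FA to 2iL were 1.68 (from 1.52) in the RAS-deleted line and 2.07 (from 1.55) under the knockout label with RAS deleted. Leaving out each library in turn gave 5 to 9 members called for medium in the RAS-deleted line, 6 to 9 for RAS deletion in FA with wild type ERF, 1 to 2 for the ERF label in 2iL with RAS present and 0 to 2 in FA with RAS present, where 5 to 11 passed. It gave 1 to 2 passing and 0 to 1 called for RAS deletion in 2iL with wild type ERF, 6 to 10 passing and 1 to 3 called for medium by ERF with RAS present, 4 to 8 passing for medium by RAS under the knockout label, and 0 to 3 passing and 0 to 1 called for RAS by ERF in 2iL. The labels do not say that replicate numbers pair libraries, and in no comparison with 3 pairs did every pair of same-numbered libraries correlate above 0.1. As a hint from the data only, every library correlated best with its own number for RAS deletion under the knockout label, in 2iL and in FA, and for medium under that label with RAS deleted. In the fit of all libraries the replicate block moved no count but the one given by more than 1.5 times. Members at a few CPM, such as Slc16a3 in 2iL, rest on few counts, and the part of depth in their spread was not tested.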
